A study of Mus musculus with 2 samples.

Results

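The meningeal-gene-rich spots of healing mouse skull are the 400 spots, 200 per section, in which 7 genes of meningeal fibroblasts took the largest share of the RNA, out of 4720 spots kept in the 2 sections. In each section, barcodes with at least 4690 UMIs (Col_nHA) or 3667 UMIs (Blank) were kept. A UMI is a molecular tag that marks 1 captured RNA molecule. The kept spots were ranked by the summed UMIs of Ptgdr, Shisa3, Col6a5, Cldn11, Penk, Foxd1 and Foxc2 over total UMIs, and the first 200 were taken. They are called marker-rich spots from here on. They made up 200 of 2471 kept spots in Col_nHA and 200 of 2249 in Blank. The spots were thus chosen by the measured levels of these 7 genes, which are given as a description and not as a result.

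Both sections came from the mouse calvaria, the bone that roofs the skull, with a bone defect. In Col_nHA the defect had been filled with a collagen/nHA material, and in Blank it had been left without that material. The samples were harvested 7 days later, frozen, sectioned and placed on a spatial array, where each spot captures RNA from a small area that can hold several cells of different types. Each group is 1 section, the labels give no strain, sex, age or number of animals, and no image or spot position was used here, so where the marker-rich spots lay in the tissue is not described.

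The meninges are the membranes between brain and skull. The dura lies against the bone, the arachnoid forms a barrier sealed by tight junctions and rich in export pumps, and the pia covers the brain. Fibroblasts of these layers make their matrix and, in mouse development, give signals such as retinoic acid and bone morphogenetic proteins (BMPs) to the brain and the skull. Forkhead factors such as Foxc1 are needed for the mouse meninges and the skull roof to form.

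The marker-rich spots held 3470225 UMIs in Col_nHA and 2574101 in Blank. The median spot had 16041 UMIs and 4833 genes in Col_nHA, and 9023 UMIs and 3292 genes in Blank. The other kept spots had medians of 13756 UMIs in Col_nHA and 9776 in Blank. Mitochondrial genes took 3.25% of UMIs in the marker-rich spots against 4.73% in the other kept spots of Col_nHA, and 4.31% against 3.61% in Blank. Both files list the same 4992 array barcodes, and 4 barcodes were marker-rich in both sections.

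**Figure D1:**
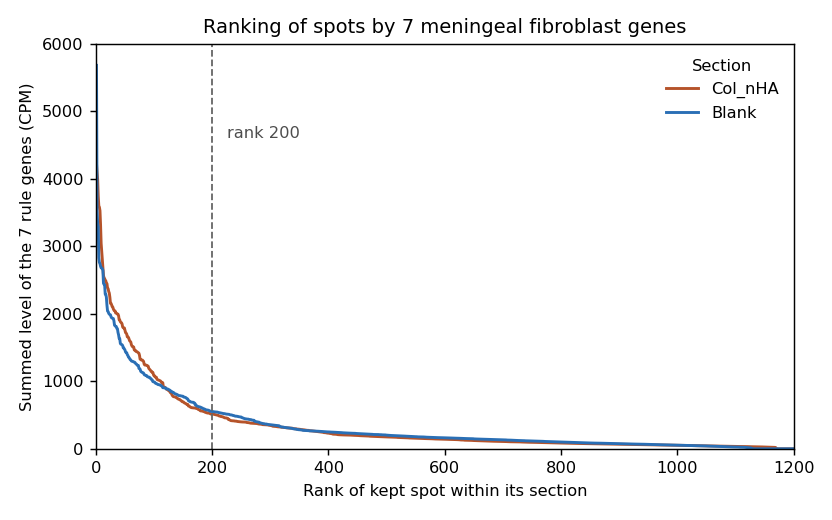
Summed level of the 7 ranking genes in CPM (y axis) against the rank of each kept spot in its section (x axis, ranks above 1200 not drawn), Col_nHA in orange and Blank in blue. No step in the level is seen at the dashed line after rank 200.

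The ranking genes formed a gradient rather than a separate set of spots. Levels are given as CPM, the UMIs of a gene per 1e+06 UMIs. The first spot had 4232 CPM of the 7 genes together in Col_nHA and 5684 CPM in Blank. The last spot inside the limit had 513.8 CPM and the first outside it 512.9 CPM in Col_nHA, against 553.1 and 552.2 CPM in Blank. Spots at or above 1000 CPM numbered 111 of 2471 in Col_nHA (4.49%) and 97 of 2249 in Blank (4.31%). At 500 CPM the shares were 8.42% in Col_nHA and 10.4% in Blank, and at 2000 CPM 36 spots of Col_nHA (1.46%) and 22 of Blank (0.978%) passed. A marker-rich spot had a median of 18 UMIs of the 7 genes in Col_nHA, from 3 to 118, and a median of 10 in Blank, from 3 to 95. At least 4 of the 7 genes had a UMI in 167 of 200 marker-rich spots (83.5%) against 67 of 2271 other kept spots (2.95%) in Col_nHA, and in 143 of 200 (71.5%) against 53 of 2049 (2.59%) in Blank.

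Over all marker-rich spots of a section, Penk, the precursor of enkephalin peptides, had 355 CPM in Col_nHA and 208 CPM in Blank. Cldn11, a tight-junction claudin of the arachnoid barrier and of myelin, had 238 CPM in Col_nHA and 316 CPM in Blank. Shisa3, which dampens Wnt and FGF signalling, had 210 CPM in Col_nHA and 228 CPM in Blank. Ptgdr, a receptor for prostaglandin D, had 121 CPM in Col_nHA and 68.4 CPM in Blank, and the collagen gene Col6a5 had 171 CPM in Col_nHA and 112 CPM in Blank. The forkhead genes Foxd1 and Foxc2 had 213 and 110.1 CPM in Col_nHA, and 168 and 108 CPM in Blank. Thus Penk, Ptgdr, Col6a5 and Foxd1 were at the higher level in Col_nHA, Cldn11 and Shisa3 in Blank, and Foxc2 was close to equal.

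Each ranking gene was also read in a ranking by the other 6 genes, which did not use it. The left-out gene was 9.92-fold (Foxc2) to 33.3-fold (Ptgdr) higher in the marker-rich than in the other kept spots of Col_nHA, and 9.50-fold (Foxc2) to 27.7-fold (Ptgdr) higher in Blank. Between 185 and 189 of the 200 spots were the same as with all 7 genes in Col_nHA, and between 172 and 192 in Blank. The 7 genes were chosen with earlier results of these data known, so these values are a description and not a test of the set.

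Genes outside the ranking were then compared as CPM of UMIs summed over the marker-rich spots against CPM summed over the other kept spots of the same section. With 1 section per group there is no test. Intervals in parentheses are exact 95% intervals from counting error only, since spots of 1 section are not replicates, and a spot with fewer cells of a type cannot be told apart from one with less RNA per cell. A gene was counted as measured when it reached 10 CPM in either group of spots. By that rule 694 of 10037 measured genes (6.91%) were at least 2-fold higher in the marker-rich spots of Col_nHA and 448 (4.46%) at least 2-fold lower. In Blank, 450 of 10158 (4.43%) were at least 2-fold higher and 545 (5.37%) lower. The split depends on scaling. With TMM, which scales on the bulk of genes, the median log2 ratio of all genes shifted by -0.19 in Col_nHA and 494 genes were higher and 612 lower. With median-of-ratios factors the shift was -0.16 and the split 512 higher and 584 lower. In Blank the shifts were -0.10 under both scalings.

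Among 9652 genes measured in Col_nHA and in Blank, 330 (3.42%) were higher by 2-fold or more in both and 250 (2.59%) lower in both. The 330 genes were 47.6% of the higher list of Col_nHA and 73.3% of that of Blank, and the 250 were 55.8% of the lower list of Col_nHA and 45.9% of that of Blank.

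**Figure D2:**
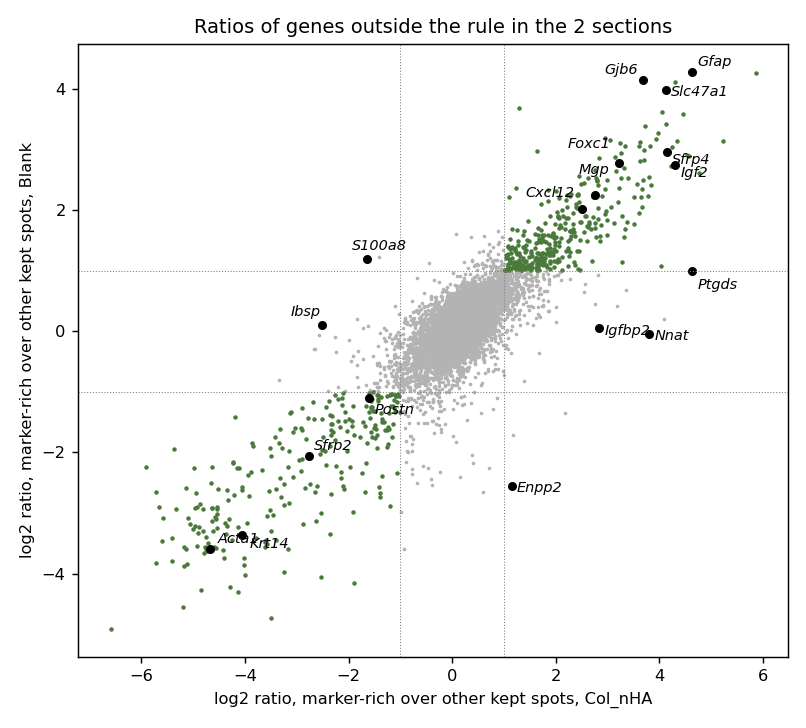
Log2 ratio of marker-rich over other kept spots in Col_nHA (x axis) and in Blank (y axis) for genes measured in both sections, without the 7 ranking genes. Green points are at least 2-fold apart in the same direction in both sections, dotted lines mark 2-fold, and black points are named: Slc47a1, Gjb6, Foxc1 and Sfrp4 lie high in both, Acta1 and Krt14 low in both, and Nnat and Igfbp2 high in Col_nHA with ratios near 1 in Blank.

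Among genes with at least 50 CPM in the marker-rich spots of each section, the 12 with the highest ratio in their lower section were barrier transporters and junction proteins, secreted and matrix proteins, and transcription factors. Slc47a1 on chromosome 11 (61343400 to 61378842, GRCm38), a multidrug exporter, had 64.0 CPM in marker-rich and 3.65 CPM in other kept spots of Col_nHA, 17.5-fold (14.1 to 21.9). In Blank it had 102.6 against 6.51 CPM, 15.8-fold (13.01 to 19.1). Gjb6 on chromosome 14 (57123301 to 57133611), a connexin of gap junctions, had 152 against 11.8 CPM in Col_nHA, 12.8-fold (11.3 to 14.6), and 92.5 against 5.23 CPM in Blank, 17.7-fold (14.3 to 21.9). Abcb1a, the P-glycoprotein drug exporter of barrier tissues, was 9.52-fold higher in Col_nHA and 8.61-fold in Blank. Ildr2, a protein of tricellular junctions, was 15.3-fold higher in Col_nHA and 9.06-fold in Blank. The anion transporter gene Slc26a7 was 23.2-fold higher in Col_nHA and 7.49-fold in Blank, and the transporter-like gene Slc35g1 10.1-fold in Col_nHA and 8.36-fold in Blank. None of these 6 genes had a lower bound under 6 in either section.

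Among the secreted and matrix genes, Sfrp4, an inhibitor of Wnt ligands, had 869 CPM in marker-rich spots against 49.0 CPM in other kept spots of Col_nHA, 17.7-fold (16.7 to 18.8). In Blank it had 386 against 49.7 CPM, 7.77-fold (7.16 to 8.43). Smoc1, a secreted calcium-binding protein that restrains BMP signalling, was 17.5-fold higher in Col_nHA and 10.7-fold in Blank. Crispld1, a secreted cysteine-rich protein, was 22.0-fold higher in Col_nHA and 12.04-fold in Blank, and the collagen gene Col26a1 20.4-fold in Col_nHA and 8.86-fold in Blank.

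The transcription factor genes of the 12 were Foxc1 and Tbx18. Foxc1 on chromosome 13 (31806646 to 31810635) had 277 CPM in marker-rich against 29.6 CPM in other kept spots of Col_nHA, 9.37-fold (8.58 to 10.2). In Blank it had 235 against 34.5 CPM, 6.83-fold (6.16 to 7.56). Tbx18, a T-box factor, was 7.15-fold higher in Col_nHA (6.22 to 8.20) and 7.29-fold in Blank (6.04 to 8.77). Over 21 alternative settings the lowest ratio of any of the 12 genes was 5.94 for Tbx18 in Col_nHA and 5.51 for Slc26a7 in Blank, both when per-spot CPM was averaged.

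**Figure D3:**
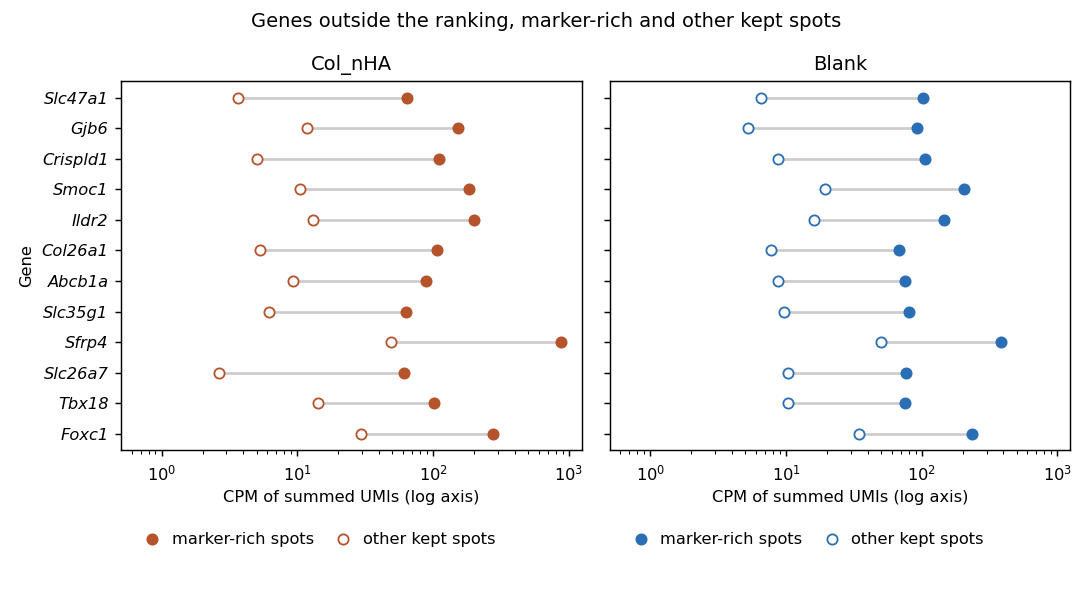
CPM of summed UMIs (log axis) of the 12 genes outside the ranking (50 CPM or more) with the highest ratio in their lower section, in marker-rich spots (filled) and other kept spots (open), Col_nHA left and Blank right. Every filled point lies to the right of its open point.

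The share of spots holding a UMI was read with each spot thinned to 3667 UMIs, with muscle-gene-rich spots as a tissue that should lack meningeal genes. Foxc1 had a UMI in 61.5% of marker-rich, 10.1% of other kept and 1.5% of muscle-gene-rich spots of Col_nHA, and in 57.0%, 11.5% and 6.53% in Blank. Without thinning the marker-rich shares were 89.5% in Col_nHA and 77.5% in Blank. Gjb6 had a UMI in 33.5%, 4.14% and 0% of these spots in Col_nHA and in 23.5%, 2.001% and 0% in Blank, where 0% of the muscle-gene-rich spots allows up to 1.83% (Col_nHA) and 1.84% (Blank) by the exact interval. For Sfrp4 the shares were 81.0% of marker-rich, 14.9% of other kept and 5% of muscle-gene-rich spots in Col_nHA, and 58.0%, 17.2% and 31.2% in Blank, where muscle was not low.

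Since the forkhead genes Foxd1, Foxc2 and Foxc1 and the T-box gene Tbx18 were high together with these genes, the 250 bases before the start of each gene were read for their motifs. RefSeq promoters (GRCm38.p6) were present for 6 of the 12 genes, and these were searched on both strands for the forkhead motif TGTTTAC and the T-box half-site AGGTGTGA. Abcb1a alone held a forkhead motif, 20 bases before its start, and none of the 6 held the T-box half-site. Abcb1a (chr5:8566841-8567090, plus strand) is printed with that motif in capitals, as its reverse complement, and Gjb6 (chr14:57133612-57133861, minus strand), among the highest of the 12, is printed as one that holds neither.
Abcb1a: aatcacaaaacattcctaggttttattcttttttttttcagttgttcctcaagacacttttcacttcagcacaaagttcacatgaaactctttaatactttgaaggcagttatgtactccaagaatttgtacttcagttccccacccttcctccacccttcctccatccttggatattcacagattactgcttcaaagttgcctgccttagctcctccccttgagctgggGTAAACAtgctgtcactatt
Gjb6: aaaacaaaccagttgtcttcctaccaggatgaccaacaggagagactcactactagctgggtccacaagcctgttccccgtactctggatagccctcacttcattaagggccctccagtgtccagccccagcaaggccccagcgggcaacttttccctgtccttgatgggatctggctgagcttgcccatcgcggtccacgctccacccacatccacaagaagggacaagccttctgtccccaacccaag

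The forkhead motif was found in 836 of all 27025 promoter windows (3.09%), in 3 of 234 windows of the genes higher in both sections (1.28%) and in 6 of 177 windows of the genes lower in both (3.39%). The T-box half-site was found in 1.14%, 0.427% and 0.565% of the same windows. A match is a run of letters and not a bound site.

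Genes of the meningeal layers were read as lists, beside the median log2 ratio of all measured genes, which was 0.13 in Col_nHA and 0.09 in Blank. A list gene that reached 10 CPM in 1 of the groups of spots alone was measured only because it was higher there, so the counts below describe the lists, and the number of such genes is given. Of the arachnoid list, 7 of 10 measured genes passed 2-fold upwards in Col_nHA and 1 downwards (median log2 ratio 3.47). In Blank 6 of 10 were higher and 2 lower (median 2.13). Of these genes 4 reached 10 CPM in the marker-rich spots alone and 1 in the other kept spots alone in Col_nHA, and 5 and 2 in Blank. Over all 12 listed genes, with no minimum, 7 were 2-fold or more higher and 2 lower in Col_nHA (median 2.27), and 7 higher and 3 lower in Blank (median 1.34). Slc47a1, Gjb6, Gjb2, Abcb1a and Aldh1a2 were higher in both sections. Gjb2, a second connexin, had 146 against 59.5 CPM in Col_nHA, 2.46-fold, and 117 against 9.17 CPM in Blank, 12.8-fold. The exceptions were Cdh1, the epithelial cadherin, which was at 7.49 against 17.8 CPM in Col_nHA and 5.44 against 19.7 CPM in Blank, and Dpp4, a cell-surface peptidase, at 2.88 against 6.32 CPM in Col_nHA under the 10 CPM minimum, and 8.55 against 21.9 CPM in Blank. Without spots rich in other tissues (muscle, skin, fat, nervous tissue or choroid plexus) the ratio of Cdh1 was 1.001 in Col_nHA and 0.414 in Blank, and the part of other tissues in its level was not tested.

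Of the dura list, 4 of 7 genes in Col_nHA and 5 of 7 in Blank were 2-fold or more higher, and none was lower, with median log2 ratios of 1.11 in Col_nHA and 1.32 in Blank. Mgp, an inhibitor of mineralisation, had 9127 CPM against 1356 CPM in Col_nHA, 6.73-fold (6.64 to 6.83), and 9809 against 2070 CPM in Blank, 4.74-fold (4.67 to 4.81). It had a UMI in all 200 marker-rich spots of each section. Smoc2, a matricellular gene, was 2.77-fold higher in Col_nHA and 1.33-fold in Blank.

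Of the 10 genes listed for the pia and leptomeningeal transporters, 7 were measured in Col_nHA and 4 in Blank. In Col_nHA 6 of the 7 were at least 2-fold higher (median log2 ratio 1.89), of which 3, Lama1, Slc13a3 and Slc22a6, reached 10 CPM in the marker-rich spots alone. In Blank 1 of the 4 was higher (median 0.27). Since the minimum kept different genes, these counts are not set against each other. The 4 genes measured in both sections can be, and 3 of them in Col_nHA and 1 in Blank were 2-fold or more higher. Igfbp2, a secreted binding protein of insulin-like growth factors, had 322 against 45.0 CPM in Col_nHA and 184 against 178 CPM in Blank. Lama2, a laminin chain, was 3.70-fold higher in Col_nHA and 2.04-fold in Blank. Few UMIs lay behind several of the others: Slc22a6, an organic anion transporter, had 41 UMIs in marker-rich spots of Col_nHA and 4 in Blank, and Lama1 had 40 in Col_nHA and 7 in Blank.

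**Figure D4:**
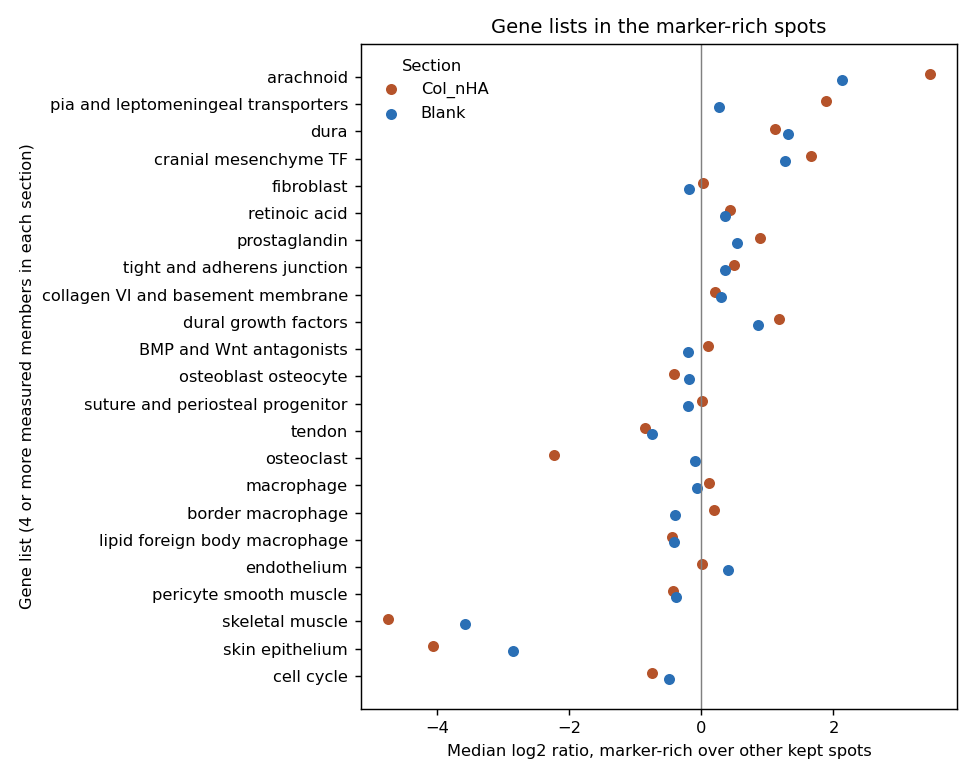
Median log2 ratio of marker-rich over other kept spots (x axis) for the 23 gene lists with at least 4 measured genes in each section, Col_nHA in orange and Blank in blue. The arachnoid list lies furthest to the right in both sections, at 3.47 in Col_nHA and 2.13 in Blank, and skeletal muscle and skin epithelium furthest to the left. The medians are over genes at 10 CPM or more in either group of spots, which can be different genes in the 2 sections.

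Transcription factors of the cranial mesenchyme were high in both sections. Of this list, 10 of 17 measured genes were 2-fold or more higher and 1 lower in Col_nHA (median log2 ratio 1.66), and 11 of 19 higher and 1 lower in Blank (median 1.26). Of the higher genes, 1 in Col_nHA and 1 in Blank reached 10 CPM in the marker-rich spots alone. Foxp2 had 72.6 against 11.7 CPM in Col_nHA, 6.19-fold, and 115 against 19.9 CPM in Blank, 5.79-fold. Six2, a homeobox gene of craniofacial mesenchyme, was 4.92-fold higher in Col_nHA and 4.81-fold in Blank. In Col_nHA, Zic1 was 3.84-fold, Zic4 3.92-fold, Msx1 3.38-fold and Alx4 3.16-fold higher, and in Blank Zic1 was 2.40-fold, Zic4 2.89-fold, Msx1 2.44-fold and Alx4 3.25-fold higher. Twist1 and Prrx1, which are broad mesenchyme genes, had ratios of 1.33 and 1.01 in Col_nHA and 0.873 and 0.880 in Blank.

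Retinoic acid genes went in both directions, and genes of like role did not always go together. Stra6, the receptor that takes up retinol, was 6.92-fold higher in Col_nHA and 5.61-fold in Blank, and the receptor gene Rarb 5.46-fold in Col_nHA and 5.89-fold in Blank. Aldh1a2, which makes retinoic acid, had 31.7 against 2.42 CPM in Col_nHA and 10.9 against 1.53 CPM in Blank. Cyp26b1, which breaks retinoic acid down, was lower, at 3.17 against 13.5 CPM in Col_nHA and 9.32 against 56.5 CPM in Blank. The binding protein Crabp1 was also lower, with ratios of 0.068 in Col_nHA and 0.20 in Blank. Crabp2, a second binding protein, went the other way. With spots thinned, it had a UMI in 27% of marker-rich against 17.1% of other kept spots of Col_nHA. In Blank these shares were 23.5% and 12.25%. Of the relatives of Aldh1a2, Aldh1a3 in Col_nHA and Aldh1a1 in Blank reached 10 CPM in the other kept spots alone. In all, 4 of 14 genes were 2-fold or more higher and 2 lower in Col_nHA, and 5 of 14 higher and 2 lower in Blank. Of the higher genes, 3 in Col_nHA and 3 in Blank (Aldh1a2, Stra6 and Rarb) reached 10 CPM in the marker-rich spots alone.

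Of the list of growth factors known from the dura, 7 of 14 genes were at least 2-fold higher and 2 lower in each section. Of these, 5 in Col_nHA and 3 in Blank reached 10 CPM in the marker-rich spots alone. Igf2, a growth factor of fetal and mesenchymal tissue, had 275 against 13.9 CPM in Col_nHA, 19.8-fold (17.8 to 22.1), and 228 against 34.0 CPM in Blank, 6.70-fold (6.04 to 7.44). The BMP ligand gene Bmp5 had 49.6 against 3.84 CPM in Col_nHA and 42.7 against 7.57 CPM in Blank. Bmp6 was 8.71-fold higher in Col_nHA and 3.47-fold in Blank, Bmp7 9.06-fold in Col_nHA and 1.34-fold in Blank, and Bmp4 3.10-fold in Col_nHA and 2.02-fold in Blank. Cxcl12, a chemokine that retains blood and progenitor cells, had 1276 against 224 CPM in Col_nHA, 5.70-fold, and 1070 against 264 CPM in Blank, 4.06-fold. Inhba, an activin chain, and Dlk1, a Notch-related protein, were the 2 lower genes, with ratios of 0.263 and 0.299 in Col_nHA and 0.356 and 0.197 in Blank.

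Of the prostaglandin list, 5 of 11 measured genes were at least 2-fold higher and 1 lower in Col_nHA, and 0 of 10 in either direction in Blank. Of the higher genes in Col_nHA 2, Hpgd and Ptger1, reached 10 CPM in the marker-rich spots alone. Since the minimum kept different genes and some ratios lay close to 2-fold, these counts are not set against each other. With all kept spots used, Ptgds, the prostaglandin D synthase gene, was 2-fold or more higher in Col_nHA but under 2-fold in Blank. The size of its ratio depended on the spots used. Without spots rich in other tissues, Ptgds was 22.1-fold higher in Col_nHA and 12.5-fold in Blank. Without the 5% of spots with the most UMIs of the gene, it was 15.5-fold higher in Col_nHA and 4.73-fold in Blank. Ptger1, a prostaglandin E receptor, had 48 UMIs in marker-rich spots of Col_nHA and 15 in Blank, 6.77-fold higher than in other kept spots in Col_nHA and 3.04-fold in Blank, where its level was under the 10 CPM minimum. Hpgd, which inactivates prostaglandins, was 2.02-fold higher in Col_nHA and 1.96-fold in Blank. Cpe, a carboxypeptidase that trims peptide precursors such as enkephalin, had 474 against 112 CPM in Col_nHA, 4.23-fold, and 480 against 141 CPM in Blank, 3.39-fold. The 3 classical opioid receptor genes Oprm1, Oprd1 and Oprk1 had 1 UMI together in the marker-rich spots of Col_nHA and 0 in Blank.

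General fibroblast genes did not share the pattern. The fibroblast list had 1 of 12 genes at least 2-fold higher and 2 lower in each section, and its median log2 ratios, 0.02 in Col_nHA and -0.18 in Blank, lay below the median of all genes. Col3a1, a fibrillar collagen, had 14138 against 14098 CPM in Col_nHA and 14142 against 19364 CPM in Blank. Fbln1, a matrix glycoprotein, was the higher gene, 3.90-fold in Col_nHA and 2.56-fold in Blank. The lower genes marked another fibroblast kind: Dpt had 18.2 against 111 CPM in Col_nHA and 69.2 against 406 CPM in Blank, and Pi16, a marker of adventitial fibroblasts, had ratios of 0.21 in both. Sfrp2, a relative of Sfrp4, ran the other way, at 131 against 890 CPM in Col_nHA and 438 against 1832.5 CPM in Blank. Postn, a matricellular gene of periosteum and wounds, had ratios of 0.33 in Col_nHA and 0.46 in Blank.

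Of 200 bone-gene-rich spots per section, 10 (5%) in Col_nHA and 23 (11.5%) in Blank were also marker-rich. Of 200 Pi16-fibroblast-gene-rich spots, 1 (0.5%) was marker-rich in each section. Marker-rich spots made up 200 of all 2471 kept spots in Col_nHA and 200 of 2249 in Blank. Beside these shares the bone overlap was lower in Col_nHA but not in Blank, and the Pi16 overlap was lower in both. Of the osteoblast and osteocyte list, 0 of 8 measured genes were at least 2-fold higher and 2 lower in Col_nHA, and 1 higher and 1 lower of 9 in Blank. Ibsp, a bone matrix protein, had 32.6 against 187 CPM in Col_nHA and 94.0 against 87.7 CPM in Blank. Of the osteoclast list, 6 of 7 measured genes were 2-fold or more lower in Col_nHA (median log2 ratio -2.24) and 0 of 4 in Blank (median -0.10), where the minimum kept fewer genes. Set section against section, 0 of 4 measured osteoclast genes were 2-fold apart in Col_nHA over Blank within the marker-rich spots (median -0.37). In the other kept spots 6 of 7 were 2-fold or more higher in Col_nHA (median 1.45). The minimum kept different genes in these 2 groups of spots, so these counts and medians are not set against each other. The protease gene Mmp9 had 146 against 685 CPM in Col_nHA and 198 against 250 CPM in Blank. The difference between the sections was not tested. Of the macrophage list, 0 of 10 genes were 2-fold apart in either section.

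Other tissues on the array were lower. Of the 12 genes with the lowest ratios all but BC100530, a stefin-like gene, were skeletal muscle genes, among them Acta1, the muscle actin, at 148 against 3777 CPM in Col_nHA and 179 against 2176 CPM in Blank. All 10 muscle genes of the list were at least 2-fold lower in both sections, as were 8 of 9 measured skin genes in Col_nHA and 10 of 10 in Blank. Spots with over 2% of their UMIs from lists of choroid plexus, nervous tissue, muscle, skin or fat numbered 0 of 200 marker-rich against 337 of 2271 other kept spots (14.8%) in Col_nHA, and 4 of 200 (2%) against 617 of 2049 (30.1%) in Blank. Without such spots 642 genes were higher and 334 lower in Col_nHA, and 483 higher and 355 lower in Blank.

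Markers of brain cells were few and sat in few spots. Gfap, a filament gene of astrocytes, was under the 50 CPM minimum but had ratios above those of the 12 genes, with 37.2 against 1.497 CPM in Col_nHA, 24.8-fold (18.0 to 34.7), and 34.6 against 1.78 CPM in Blank, 19.5-fold (13.6 to 28.1). It had a UMI in only 23 of 200 marker-rich spots of Col_nHA and 24 of 200 in Blank. The mature oligodendrocyte markers Mog, Mobp and Opalin had 0 UMIs in the marker-rich spots of Col_nHA and 3, 0 and 3 in Blank. The neuron gene Snap25 had 6 UMIs in Col_nHA and 28 in Blank. The choroid plexus gene Ttr, the transthyretin carrier, had 4 UMIs in marker-rich spots of Col_nHA, and in Blank 974 CPM against 11726 CPM in the other kept spots. In Blank 139 other kept spots and 1 marker-rich spot passed 2% for the choroid plexus list. The part of these cells in the results was not tested.

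**Figure D5:**
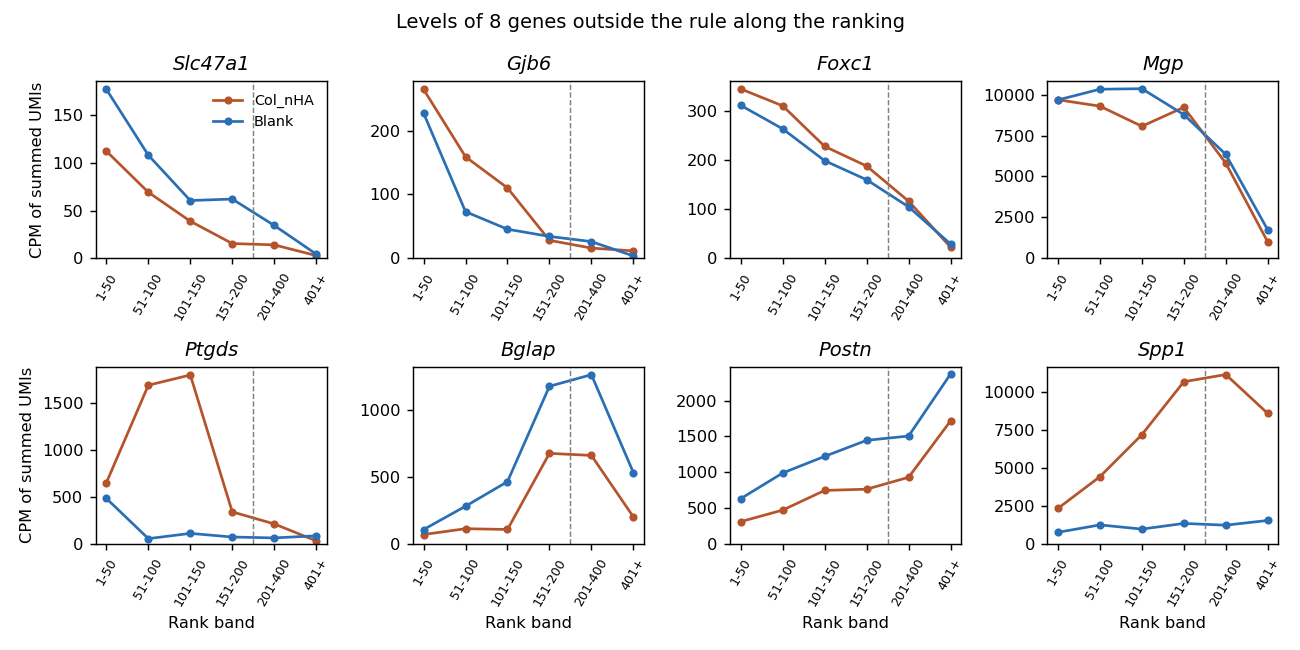
CPM of summed UMIs (y axis, from 0) of 8 genes outside the ranking in bands of spots ordered by the 7 ranking genes (x axis), Col_nHA in orange and Blank in blue, with a dashed line after rank 200. Slc47a1, Gjb6 and Foxc1 are lower along the ranking, Mgp is level up to rank 200, Postn is higher in later bands, and Ptgds peaks at ranks 51 to 150 in Col_nHA.

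Along the ranking, genes outside it took 3 courses. Foxc1 was lower in each later band, with 345, 311, 228 and 188 CPM over the 4 bands of 50 marker-rich spots in Col_nHA, 116 CPM at ranks 201 to 400 and 22.7 CPM after that. In Blank it had 312, 264, 199 and 160 CPM, then 105 and 29.0 CPM. Mgp stayed between 8071 and 9692 CPM over the 4 bands in Col_nHA and between 8786 and 10370 CPM in Blank, then had 5817 CPM in Col_nHA and 6352 CPM in Blank at ranks 201 to 400. After that it had 1001 CPM in Col_nHA and 1737 CPM in Blank. Postn was at 310.5 CPM in the first 50 spots of Col_nHA and 1716 CPM after rank 400, against 632 and 2371 CPM in Blank. Bglap, the osteocalcin gene of osteoblasts, had 69.7, 113, 108 and 675 CPM in the 4 bands of Col_nHA and 107, 281, 464 and 1175 CPM in Blank. After rank 200 it had 660 and then 201 CPM in Col_nHA, and 1262 and then 532 CPM in Blank. A single spot, at ranks 151 to 200, held 442 of the 745 Bglap UMIs in marker-rich spots of Col_nHA, so no order is read from its bands there. Postn was lowest where the 7 ranking genes were highest, and the spots just past rank 200 still had intermediate levels of Foxc1 and Mgp.

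Col_nHA and Blank were then compared within the marker-rich spots, which sets 1 library against 1 library. Of 9974 measured genes, 119 (1.19%) were higher in Col_nHA by 2-fold or more and 176 (1.76%) lower. In the other kept spots, 196 of 9831 (1.99%) were higher and 390 (3.97%) lower, and 40 of the higher and 73 of the lower genes were on both lists. The meningeal lists are given beside these shares of all genes, to which a count of 0 in so short a list is close. Of 17 measured cranial mesenchyme factors 0 were 2-fold apart, with a median log2 ratio of -0.20, and Foxc1 had a ratio of 1.18. Of 7 dura genes 0 were 2-fold or more higher in Col_nHA and 1 lower (median -0.10). Of 9 measured arachnoid genes 3, Ptgds, Aldh1a2 and Slc6a13, were higher and 0 lower (median 0.32). Of 7 measured pia and leptomeningeal genes 3, Slc22a6, Lama1 and Slc13a3, were higher and 0 lower (median 0.81), with 4, 7 and 17 UMIs of these 3 genes in Blank. Slc47a1 had a ratio of 0.624 (0.519 to 0.749), and Sfrp4 had one of 2.25 (2.09 to 2.42), while in the other kept spots Sfrp4 had 0.986.

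The 8 genes with the highest ratio were Ptgds, Nnat, Arg1, Spp1, Ptprn, Gpnmb, Actg2 and Itgax. Spp1, the osteopontin gene, had 5707 CPM in Col_nHA and 1105 CPM in Blank, 5.17-fold (4.97 to 5.38), and Gpnmb, a gene of lipid-loaded macrophages and osteoblasts, 812 CPM in Col_nHA and 189 CPM in Blank, 4.29-fold. The macrophage enzyme gene Arg1 had 50.7 CPM in Col_nHA and 9.71 CPM in Blank, 5.22-fold. In the other kept spots the ratios were 5.78 for Spp1, 3.89 for Gpnmb and 8.26 for Arg1, so the marker-rich spots were not alone in them. Spp1 was lowest where the ranking genes were highest, at 2332 CPM in the first 50 spots of Col_nHA and 10655 CPM at ranks 151 to 200. Ptprn, a protein of secretory granules, had 65.1 CPM in Col_nHA and 13.99 CPM in Blank, 4.66-fold, against 2.33 in the other kept spots.

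With all kept spots used, Ptgds and Nnat had ratios in the marker-rich spots that the other kept spots did not share. Ptgds, the prostaglandin D synthase of the leptomeninges and choroid plexus, had 1137 CPM in Col_nHA and 168 CPM in Blank, 6.76-fold (6.12 to 7.48), and a ratio of 0.543 in the other kept spots. Its UMIs were concentrated: 3 of 200 spots held 50% or more of the 3947 UMIs in Col_nHA, with 1163 in 1 spot, and 4 spots held that share of the 433 UMIs in Blank. A UMI was present in 119 spots of Col_nHA and 89 of Blank. Without the 10 spots with the most Ptgds in each section, the levels were 282 CPM in Col_nHA and 62.6 CPM in Blank, 4.51-fold. The contrast with the other kept spots depended on spots rich in other tissues. Without them, Ptgds was 6.84-fold higher in marker-rich spots of Col_nHA than of Blank. The other kept spots then left were also higher in Col_nHA, so for Ptgds the direction was shared. Nnat, an imprinted gene of neural and endocrine tissue, had 219 UMIs in 34 spots of Col_nHA and 30 UMIs in 14 spots of Blank, 5.41-fold, against 0.377 in the other kept spots.

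Several leptomeningeal genes and the astrocyte gene Gfap varied with Ptgds from spot to spot in Col_nHA. Over its 200 marker-rich spots, which share a library and differ in depth, Spearman's rho of per-spot level with Ptgds was 0.58 for Nnat, 0.44 for Aldh1a2, 0.41 for the transporter genes Slc6a13 and Slc22a6, and 0.39 for Lama1. It was 0.35 for Gfap and 0.25 for Olig1, a gene of the oligodendrocyte lineage, -0.04 for Slc47a1 and -0.29 for Mgp. In Blank, with fewer UMIs of each, rho was 0.10 for Nnat, 0.15 for Aldh1a2, 0.21 for Slc6a13, 0.19 for Slc22a6, 0.07 for Lama1 and 0.20 for Gfap. These values are a description. Aldh1a2 had 110 UMIs in 45 spots of Col_nHA and 28 UMIs in 17 spots of Blank, a ratio of 2.91 (1.91 to 4.58), and Slc6a13 had 48 UMIs in 20 spots of Col_nHA and 5 UMIs in 4 spots of Blank. Without the 10 spots with the most UMIs of the gene, Aldh1a2 had 13.1 CPM in Col_nHA and 2.92 CPM in Blank. For Slc22a6, 90.2% of the 41 UMIs in Col_nHA lay in 10 spots. In Col_nHA, 26 of 200 choroid-plexus-gene-rich spots (13%) were also marker-rich, beside 200 of all 2471 kept spots. In Blank 2 of 200 (1%) were, beside 200 of all 2249 kept spots. The choroid-plexus-gene-rich spots are unlike sets in the 2 sections. For the choroid plexus list 0 spots of Col_nHA, and 1 marker-rich and 139 other kept spots of Blank, passed 2%. The choroid-plexus-gene-rich spots had 911 CPM of Ptgds in Col_nHA and 894 CPM in Blank.

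The 8 genes with the lowest ratio were Ttr, Krt77, Lor, C1qtnf3, Gpha2, Enpp2, S100a9 and Krt10. Ttr and Enpp2 belong to the choroid plexus list and Krt77, Lor and Krt10 to the epidermis. Other kept spots over 2% numbered 0 in Col_nHA and 139 in Blank for the choroid plexus list, and 58 in Col_nHA and 112 in Blank for skin. C1qtnf3, a secreted protein of cartilage and fibroblasts, had 14.985 CPM in Col_nHA and 100.6 CPM in Blank, 0.149 (0.108 to 0.201), against 0.487 in the other kept spots. The neutrophil gene S100a9 had 48.1 CPM in Col_nHA and 216 CPM in Blank, and in Blank 6 spots held 50% or more of its UMIs. Of the osteoblast and osteocyte list, 4 of 8 genes were at least 2-fold lower in Col_nHA and 1, Spp1, higher, with a median log2 ratio of -0.93. Bglap had 215 CPM in Col_nHA and 503 CPM in Blank, and a ratio of 0.427, beside 0.402 in the other kept spots.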

How the data were processed

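The deposited files are UMI counts per gene and barcode, made by the authors with Space Ranger on genome build mm10, per the submitters' processing notes, and written by Cell Ranger 4 tools per the file headers. Each of the 2 files holds 31053 genes and 4992 barcodes. The labels' extraction text describes a droplet single-cell kit while the description names frozen spatial sections, and the barcodes are array positions. Spots were kept by UMI total, so the tissue outline was not used, and no doublet caller was run. UMIs were summed over spots and divided by the total UMIs (CPM). Ratios have exact 95% conditional binomial intervals, and a group at 0 was given 3 counts. There was no test, with 1 section per group. The steps were tested on simulated data. Python 3.11.15, numpy 2.4.6, scipy 1.17.1, pandas 2.3.3 and matplotlib 3.10.9 were used, with edgeR 4.0.16 for TMM factors in R 4.3.3.

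The members, the 35 gene lists and the settings were chosen with earlier results of these data known. The text names the 7 ranking genes, the 12 genes with the highest and the 12 with the lowest ratio in both sections (at least 50 CPM in the group of spots where they are higher), the 8 highest and 8 lowest ratios of Col_nHA over Blank, and from each list the 2 most abundant and the 2 with the largest ratio. The named sets other than the ranking genes leave out mitochondrial, ribosomal, haemoglobin and predicted genes. Other list members and the genes in the closing section were named after their values were seen. Gene positions come from RefSeq on GRCm38.p6, which matched 30934 of 31053 gene IDs. Alternatives changed the number of spots, the ranking genes, the UMI minimum, the depth, the compared spots, the summary, the scaling and the minimum level.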

Additional observations from a re-analysis of the deposited data

Results flagged for a closer look

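In the comparison of marker-rich with other kept spots, 5 genes lay at least 2-fold apart in opposite directions in the 2 sections. The difference between the sections was not tested for any of them. Ackr1, a chemokine-binding receptor of venules, had a ratio of 2.25 in Col_nHA, with 15.8 against 7.05 CPM, and 0.304 in Blank, with 3.88 against 12.8 CPM. Cyp2f2, a monooxygenase gene, had 4.52 in Col_nHA and 0.393 in Blank. Enpp2, which is high in choroid plexus, had 2.22 in Col_nHA and 0.171 in Blank. Without spots rich in other tissues its ratio in Blank was 0.899, and that of Cyp2f2 0.616. The neutrophil gene S100a8 had 0.321 in Col_nHA and 2.30 in Blank, and its partner S100a9 had 0.375 in Col_nHA and 2.34 in Blank. In Blank 4 spots held 50% or more of the S100a8 UMIs, and without spots rich in other tissues the ratios in Blank were 1.93 for S100a8 and 1.98 for S100a9.

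Barcodes below the UMI minimum, which no comparison used, also held the 7 ranking genes. Their level was 192 CPM in Col_nHA and 274 CPM in Blank. The other kept spots had 57.8 CPM (Col_nHA) and 68.7 CPM (Blank), and the marker-rich spots 1418 CPM (Col_nHA) and 1207 CPM (Blank). The other kept spots are low by selection, since the spots highest in these genes had been taken out of them. No such spots were taken out of the barcodes below the minimum, so these levels are not set against each other.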

How the results depend on the processing

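The 6 counts of genes were recomputed under 21 settings, and 104 of 126 stayed within 1.5 times. With the top 100 spots, 224 genes were higher in Col_nHA than in Blank within the marker-rich spots. With the top 400, 433 genes were higher in marker-rich spots of Col_nHA and 211 in both sections. With barcodes of at least 1000 UMIs, 187 were higher in Col_nHA than in Blank, and with averaged per-spot CPM 211. With the ranking on thinned spots, 282 were lower in Col_nHA than in Blank. Without spots rich in other tissues, 143 genes were lower in marker-rich spots of both sections. With a minimum of 50 CPM, 245 (Col_nHA), 156 (Blank) and 124 (both) were higher in marker-rich spots and 82 lower in both, and 20 were higher and 43 lower in Col_nHA than in Blank. With no minimum but 1 UMI these were 2412, 1716, 892, 638, 674 and 1124. Leaving out, for each gene, the 5% of spots with the most UMIs was chosen after seeing the data, and gave 134 genes lower in both, and 243 higher and 96 lower in Col_nHA than in Blank. The 50 CPM and 1 UMI settings test fewer and more genes by construction. For the others the cause was not tested.

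Of 11592 recomputed ratios of named genes, 9429 lay inside the counting interval, 2155 outside it, and 8 changed direction. The ratio of Ccl21a in Col_nHA over Blank was 1.77 with the top 100, 1.28 with 1000 UMIs, 1.59 without spots rich in other tissues and 2.10 without the 5% of spots. Without spots rich in other tissues, marker-rich over other kept spots gave 1.05 (Col_nHA) and 1.24 (Blank) for Lor and 1.001 for Cdh1 in Col_nHA. Sox10 in Blank was 0.770 with Cldn11 left out of the ranking. No paired analysis was possible because each group holds 1 section.

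The depth limits genes with few UMIs: a count of 0 over all marker-rich spots of a section allows up to about 3 counts. Intervals cover counting error only and not the spread between animals or sections, which these 2 sections cannot give. No tissue image or spot position was used, so the anatomy of the marker-rich spots was not checked, and the UMI minimums, not a tissue mask, decided which barcodes counted as tissue.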
